A study of Caenorhabditis elegans with 6 samples.

Results

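The genes described here encode the machinery that recognises, engulfs and digests dying cells in the nematode Caenorhabditis elegans. They are 10 of the 46659 rows of the deposited count table, picked by name, with no measured value in the rule but with earlier results of these data known: ced-1, ced-7, ced-6, psr-1, ced-2, ced-5, ced-12, ced-10, nuc-1 and cps-6. All 10 were found and all 10 passed the filter on low counts. The mutant of interest was dot-1.1(knu339); ced-3(n1286), called the double mutant, and its control was ced-3(n1286), called the single mutant, with 3 biological replicates each. Both genotypes therefore carry the ced-3 mutation, and no genotype with an intact ced-3 was analysed here. The RNA came from whole embryos released by bleaching egg-laying adults that had been grown in synchrony at the same temperature, so each library mixes embryonic cell types and may mix stages. The labels do not say what the knu339 and n1286 alleles do to their genes.

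In C. elegans, a cell that dies exposes phosphatidylserine and is swallowed by a neighbour, since the worm has no dedicated phagocytes. The work is done by a pair of partly redundant branches. The receptor branch holds the receptor CED-1 with the transporter CED-7 and the adaptor CED-6. The Rac branch holds the adaptor CED-2 with CED-5 and CED-12. These activate the Rac GTPase CED-10 and can be engaged by the phosphatidylserine receptor PSR-1. The corpse is then digested in a phagolysosome, where the DNase II enzyme NUC-1 degrades DNA, while CPS-6, the worm endonuclease G, leaves mitochondria to cut DNA inside the dying cell. The caspase CED-3 executes most programmed deaths in this animal, and DOT-1.1 is a methyltransferase of the DOT1 family that acts on histone H3. In whole embryos, fewer cells of a type and less RNA per cell cannot be told apart.

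Library totals ran from 66316445 to 75279479 counts in the double mutants and from 68832040 to 77957224 counts in the single mutants. The 10 genes together took 0.0974% to 0.111% of the counts in the double mutants and 0.0977% to 0.103% in the single mutants. Single members had between 1224 and 21428 counts in a library. The dot-1.1 transcript was detected in every library, at 62.6, 28.6 and 36.2 CPM in the libraries labelled double mutant and at 66.9, 34.8 and 45.9 CPM in the single mutants. CPM is the count as a share of the library's total on the usual CPM scale, with TMM factors that align the libraries. The groups overlapped, with a log2 fold change of -0.21 ± 0.33 SE (adjusted p = 0.806, edgeR), so this level does not check the labels. All 13 markers of early embryos and maternal transcripts were detected.

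Levels of different genes were compared as CPM per kilobase of annotated exon, averaged over the 6 libraries. On this scale all 10 genes lay between the 70.8th and the 89.7th percentile of the tested genes. The Rac gene ced-10 had the highest level per kilobase, 63.6, and was first in both genotypes. The nuclease gene nuc-1 followed at 49.6, the transporter gene ced-7 at 48.6, the adaptor gene ced-2 at 42.6 and the receptor gene ced-1 at 41.3. Lower levels per kilobase were found for ced-12 at 36.3, psr-1 at 32.4, ced-6 at 25.3, ced-5 at 24.1 and cps-6 at 23.9. Every pair of neighbours in this order overlapped in range over the 6 libraries. The gene psr-1 was above ced-6 in all 6 libraries, whereas nuc-1 was above ced-7 in none of the 3 double mutant libraries and in all 3 single mutant libraries. With the longest annotated transcript as the length in place of all exons, ced-1 moved to rank 2, ced-2 to rank 5 and nuc-1 to rank 4.

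**Figure D1:**
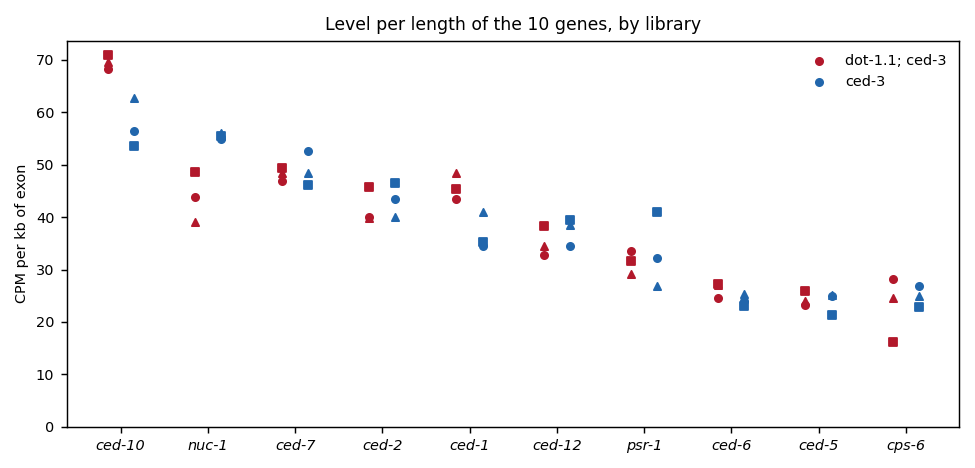
Level of the 10 genes in CPM per kilobase of exon, ordered by the mean over 6 libraries; red marks dot-1.1; ced-3 and blue ced-3 libraries, and circle, square and triangle mark replicates 1, 2 and 3. The gene ced-10 is at 53.6 or more in every library, and the neighbours in the order overlap.

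None of the 10 genes was called between the genotypes at an adjusted p under 0.05 by edgeR, where 0.0806% of the 17365 tested genes were called. At an unadjusted p under 0.05 the genes ced-1, ced-10 and nuc-1 passed in edgeR, which is 3 of 10 against 12.1% of all tested genes. DESeq2 called 0 of them, where it called 374 higher and 87 lower among 19370 tested genes. It had 1 of them at an unadjusted p under 0.05, for which no share over all genes is given here. With the replicate number as a block, edgeR again called 0 of the 10, against 4.01% of all tested genes, and the same 3 had an unadjusted p under 0.05, against 24.5% of all tested genes. The median log2 fold change of the 10 genes was -0.038, and that of all tested genes was -0.016. The unadjusted 95% intervals of the 10 genes lay within 0.655-fold and 1.49-fold, double mutant over single mutant. Two-sided p-values were adjusted over all tested genes by the method of Benjamini and Hochberg.

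**Figure D2:**
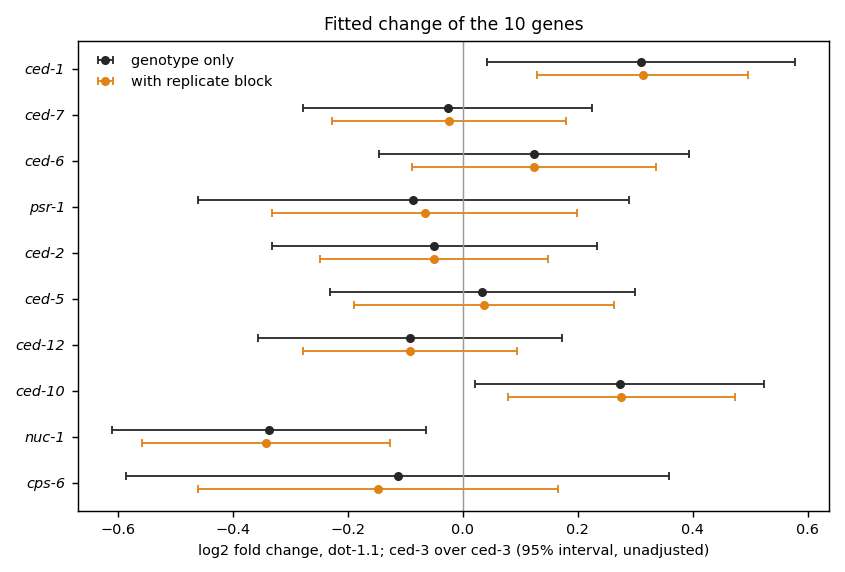
Log2 fold change of each gene, double mutant over single mutant, with its unadjusted 95% interval, in the fit with genotype only and in the fit with the replicate block. The intervals of ced-1, ced-10 and nuc-1 exclude 0 in both fits and those of the other 7 genes include it.

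The receptor branch begins with ced-1 (Y47H9C.4, WBcel235 chromosome I, 11851554 to 11868105, minus strand), the transmembrane receptor that clusters around a dying cell. Its level was 212, 221 and 236 CPM in double mutant replicates 1, 2 and 3, and 168, 172 and 199.7 CPM in single mutant replicates 1, 2 and 3. Every double mutant library was above every single mutant library, a separation seen for 10.6% of tested genes in this direction. The mean was 223 ± 11.82 CPM in the double mutants and 179.8 ± 17.3 CPM in the single mutants (SD, n = 3 each). The log2 fold change was 0.31 ± 0.12 SE, or 1.24-fold, and did not pass the test over all genes (adjusted p = 0.364, edgeR). Within the pairs of equal replicate number the log2 differences were 0.34, 0.36 and 0.24. The blocked fit gave 0.31 ± 0.080 SE (adjusted p = 0.0669, edgeR). DESeq2 with the block called ced-1 higher (adjusted p = 0.0262), as did edgeR with the block when replicate 2 of both genotypes was left out (0.29 ± 0.093 SE, adjusted p = 0.0299). These fits called 6.35% and 7.81% of all their tested genes higher.

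The other members of the receptor branch overlapped between the genotypes. The gene ced-7 (C48B4.4, chromosome III, 9570390 to 9580089, minus strand) encodes an ABC transporter that acts in both the dying and the engulfing cell. It was at 267, 281 and 276 CPM in the double mutants and 299.8, 263 and 276 CPM in the single mutants. The 2 groups were almost superimposed, with a log2 fold change of -0.026 ± 0.11 SE and an interval of 0.825-fold to 1.17-fold (adjusted p = 0.94, edgeR), and the value was 0.040 without single mutant replicate 1. The gene ced-6 (F56D2.7, chromosome III, 5595771 to 5598061, plus strand) encodes an adaptor that binds the intracellular part of CED-1. Its level was 41.5, 46.1 and 45.8 CPM in the double mutants and 40.6, 39.1 and 42.9 CPM in the single mutants. The double mutant was the higher library in 3 of 3 pairs, as for 22.5% of tested genes, but replicate 1 of the double mutant fell inside the range of the single mutants. The log2 fold change was 0.12 ± 0.12 SE (adjusted p = 0.685, edgeR). Exons of ced-6 overlap those of wdr-37 on the other strand over 83 bases, and exons of ced-7 overlap those of C48B4.13 there over 71 bases. Whether strand was used in counting is not stated.

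The proportion between the receptor and the transporter transcripts was examined after the values had been seen, and is given without a test. The ratio of ced-1 to ced-7 CPM was 0.794, 0.787 and 0.855 in the double mutants and 0.56, 0.653 and 0.723 in the single mutants. All 3 double mutant values were above all 3 single mutant values, which was already so for ced-1 alone.

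**Figure D3:**
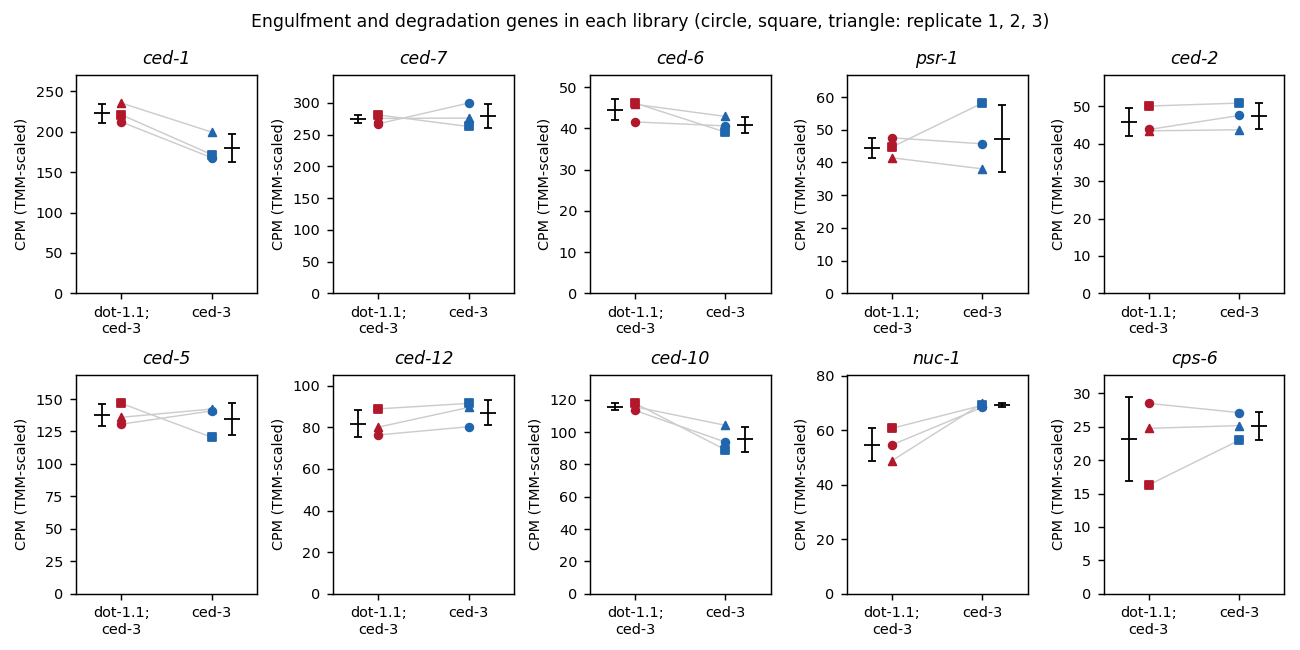
CPM of the 10 genes in each library, dot-1.1; ced-3 left and ced-3 right in every panel; circle, square and triangle are replicates 1, 2 and 3, grey lines join equal replicate numbers, and bars give mean and SD (n = 3). The groups are separate for ced-1 and ced-10, which are higher in the double mutants, and for nuc-1, which is lower.

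In the Rac branch, ced-10 (C09G12.8, chromosome IV, 3506328 to 3509527, minus strand) encodes the GTPase at which the engulfment signals meet and that drives actin rearrangement. Its level was 113, 118 and 116 CPM in the double mutants and 93.8, 89.0 and 104.2 CPM in the single mutants. All double mutant libraries were above all single mutant libraries, as for 10.6% of tested genes. The mean was 116 ± 2.20 CPM in the double mutants and 95.7 ± 7.76 CPM in the single mutants (SD, n = 3 each). The log2 fold change was 0.27 ± 0.11 SE, or 1.21-fold, and did not pass the test over all genes (adjusted p = 0.386, edgeR; 0.103 with the block). The pair differences were 0.27, 0.40 and 0.15 on the log2 scale. Reads of a Rac gene can be shared with its paralogue, and no source used here says how reads that map to several places were treated. The Rac paralogue rac-2 had 0, 3 and 0 counts in the double mutants and 0 in every single mutant library, which allows up to 3 counts. The related GTPase gene mig-2 was at 112, 109.7 and 108.4 CPM in the double mutants and 118, 115 and 121 CPM in the single mutants (log2 fold change -0.10 ± 0.10 SE, adjusted p = 0.692, edgeR).

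The 3 genes that act upstream of ced-10 through exchange on Rac, ced-5, ced-12 and ced-2, overlapped between the genotypes. The gene ced-5 (C02F4.1, chromosome IV, 10484110 to 10492913, plus strand) encodes the DOCK family exchange factor for Rac. It was at 131, 147 and 136 CPM in the double mutants and 141, 120.5 and 142 CPM in the single mutants, with a log2 fold change of 0.034 ± 0.12 SE. Its direction was set by single mutant replicate 2, without which the value was -0.038. The gene ced-12 (Y106G6E.5, chromosome I, 10222881 to 10227009, minus strand) encodes the ELMO partner of CED-5. It was at 76.3, 88.9 and 80.1 CPM in the double mutants and 80.3, 91.5 and 89.6 CPM in the single mutants, with a log2 fold change of -0.092 ± 0.12 SE. The double mutant was the lower library in 3 of 3 pairs, as for 25.3% of tested genes. The gene ced-2 (Y41D4B.13, chromosome IV, 1597318 to 1601621, plus strand) encodes the Crk adaptor that binds CED-5. It was at 43.8, 50.1 and 43.5 CPM in the double mutants and 47.6, 50.9 and 43.8 CPM in the single mutants, with a log2 fold change of -0.050 ± 0.12 SE. The adjusted p of these genes was 0.763 to 0.923 in edgeR, and ced-2 was also lower in 3 of 3 pairs, with log2 differences of -0.12, -0.023 and -0.0093. The value of ced-2 was 0.0066 without single mutant replicate 2. Exons of ced-12 overlap those of csnk-1 on the same strand over 24 bases, or 1.03% of its exon length. Exons of ced-5 overlap those of tax-6 on the other strand over 45 bases.

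The receptor gene psr-1 (F29B9.4, chromosome IV, 4653262 to 4655850, plus strand) had its widest spread among the single mutants. It was at 47.5, 44.7 and 41.4 CPM in the double mutants and 45.7, 58.2 and 38.1 CPM in the single mutants. The double mutant values all lay inside the range of the single mutants. The log2 fold change was -0.086 ± 0.17 SE (adjusted p = 0.848, edgeR), and it was 0.094 without single mutant replicate 2. Exons of psr-1 overlap those of the collagen gene col-111 on the other strand over 60 bases, or 4.23% of its exon length.

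As CPM ratios, also chosen after the values had been seen and not tested, ced-10 over ced-5 was 0.868, 0.803 and 0.851 in the double mutants and 0.666, 0.739 and 0.732 in the single mutants. The ratio of ced-5 to its partner ced-12 was 1.71, 1.65 and 1.70 in the double mutants and 1.75, 1.32 and 1.59 in the single mutants. The first ratio was separate between the genotypes, as ced-10 alone was, and the second was not.

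Among the nucleases, nuc-1 (C07B5.5, chromosome X, 9539905 to 9542329, plus strand) had the lowest p of the 10 genes in edgeR without the block, while ced-1 had it with the block. NUC-1 is the acid DNase that clears the DNA of engulfed cells in the engulfing cell's lysosomes and also digests bacterial DNA in the gut. Its level was 54.7, 60.8 and 48.9 CPM in the double mutants and 68.5, 69.2 and 69.9 CPM in the single mutants. All double mutant libraries were below all single mutant libraries, as for 7.91% of tested genes. The mean was 54.8 ± 5.94 CPM in the double mutants and 69.2 ± 0.715 CPM in the single mutants (SD, n = 3 each). The coefficient of variation was 10.9% in the double mutants and 1.03% in the single mutants, where counting error alone would give about 1.60% in the double mutants and 1.41% in the single mutants. The log2 fold change was -0.34 ± 0.12 SE, or 0.792-fold with an interval of 0.655 to 0.957, and it did not pass the test over all genes (adjusted p = 0.340, edgeR). The blocked fit gave -0.34 ± 0.094 SE (adjusted p = 0.0772, edgeR). DESeq2 with the block called nuc-1 lower (adjusted p = 0.0349), and so did edgeR with the block when replicate 2 of both genotypes was left out (-0.42 ± 0.11 SE, adjusted p = 0.00767). These fits called 6.52% and 6.39% of all their tested genes lower.

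The DNase II relatives of nuc-1, crn-6 and crn-7, were lower in the double mutant in 3 of 3 pairs, as nuc-1 was and as 25.3% of tested genes were. The gene crn-6 was at 16.7, 27.4 and 15.2 CPM in the double mutants and 28.3, 32.1 and 19.8 CPM in the single mutants, with overlapping groups (log2 fold change -0.44 ± 0.26 SE, adjusted p = 0.522, edgeR). The gene crn-7 was at 5.83, 5.22 and 6.01 CPM in the double mutants and 6.94, 7.27 and 8.19 CPM in the single mutants. Its groups were separate, as for 7.91% of tested genes in this direction (-0.39 ± 0.18 SE, adjusted p = 0.433, edgeR). Neither passed the test with the block in edgeR (adjusted p = 0.0874 for crn-6 and 0.173 for crn-7). DESeq2 with the block called crn-6 lower (adjusted p = 0.0227), and edgeR with the block called it without replicate 2 of both genotypes (adjusted p = 0.00726). Of all their tested genes, these fits called 6.52% and 6.39% lower. The summed level of the DNase II genes was 77.2, 93.4 and 70.1 CPM in the double mutants and 103.7, 109 and 97.9 CPM in the single mutants, and nuc-1 made up 68.5% of it in the double mutants and 67.0% in the single mutants. The sum was compared after the values had been seen and was not tested.

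The gene cps-6 (C41D11.8, chromosome I, 4446586 to 4448461, minus strand) encodes the endonuclease that moves from mitochondria to the nucleus in dying cells, and had the lowest mean level per kilobase of the 10 genes. It was at 28.5, 16.3 and 24.8 CPM in the double mutants and 27.1, 22.98 and 25.2 CPM in the single mutants. Replicate 2 of the double mutant was the lowest library by far, and the other double mutant libraries lay close to the single mutants. The log2 fold change was -0.11 ± 0.21 SE (adjusted p = 0.839, edgeR) and was 0.12 without double mutant replicate 2. Its exons overlap eif-3.H, a gene of a translation initiation factor subunit, on the other strand over 28 bases.

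Marker lists for cell types and stages were summed in the same libraries. The 6 pharynx markers summed to 1427, 780.4 and 928 CPM in the double mutants and to 571, 461 and 407 CPM in the single mutants. Of these markers 4 of 6 lay above 0 in log2 fold change, the myosin genes myo-1, myo-2 and myo-5 and the troponin gene tnt-4, while the fate genes pha-4 and ceh-22 were at -0.0060 and -0.13. The 8 markers of body wall muscle, a tissue whose cells can engulf corpses, summed to 5742, 2999 and 3791 CPM in the double mutants and to 3302, 2228 and 2897 CPM in the single mutants. The pharynx sums did not overlap, while the muscle sums did. Of the muscle markers 7 of 8 lay above 0, and the other was the fate gene hlh-1 at -0.15. The 13 early embryo and maternal markers summed to 442, 608 and 409 CPM in the double mutants and to 606, 642 and 424 CPM in the single mutants, lower in each pair, with 1 of 12 tested members above 0 in log2 fold change. The 6 intestine markers summed to between 514 and 572 CPM in the double mutants and between 431 and 450.4 CPM in the single mutants. Of these markers 3 of 6 lay above 0, act-5 at 0.45, ifb-2 at 0.34 and pho-1 at 0.12. The others were the fate genes elt-7 at -0.40 and elt-2 at -0.068, and ges-1 at -0.14. Epidermis markers, from another tissue that engulfs corpses, summed to between 1014 and 1166 CPM in the double mutants and between 948 and 1371 CPM in the single mutants, with 0 of 7 tested members above 0 and the fate gene elt-1 at -0.41. The 7 neuron markers summed to between 516 and 588 CPM in the double mutants and between 485 and 504 CPM in the single mutants, with 5 of 7 above 0. The 5 germ line markers summed to between 98.2 and 158 CPM in the double mutants and between 129 and 171 CPM in the single mutants, with 1 of 5 above 0. The adult markers summed to between 3.65 and 4.15 CPM in the double mutants and between 1.33 and 2.26 CPM in the single mutants, with 6 of 6 tested members above 0. Their counts were low, and col-19 had 10, 14 and 12 counts in the double mutants and 0 in every single mutant library. It passed the filter on low counts only through the double mutants, as did vit-3, vit-4 and vit-5. The directions of these genes add nothing to that tally. The gene vit-6 had 17, 59 and 53 counts in the double mutants and 10, 16 and 14 in the single mutants. The gene vit-1 overlapped, at 2.44, 0.67 and 1.59 CPM in the double mutants and 1.66, 0.72 and 1.51 CPM in the single mutants. No marker was at 0 in all 6 libraries. Pharynx and muscle sums were highest in double mutant replicate 1. In double mutant replicate 3, ced-1 was highest, and both nuc-1 and the early embryo and maternal sum were lowest. In single mutant replicate 3 that sum was the lowest of its genotype, at 424 CPM, and ced-1 the highest, at 199.7 CPM. There nuc-1, at 69.9 CPM, was the highest of the 6 libraries. The part of cell makeup and stage in the values of ced-1, ced-10 and nuc-1 was not tested.

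**Figure D4:**
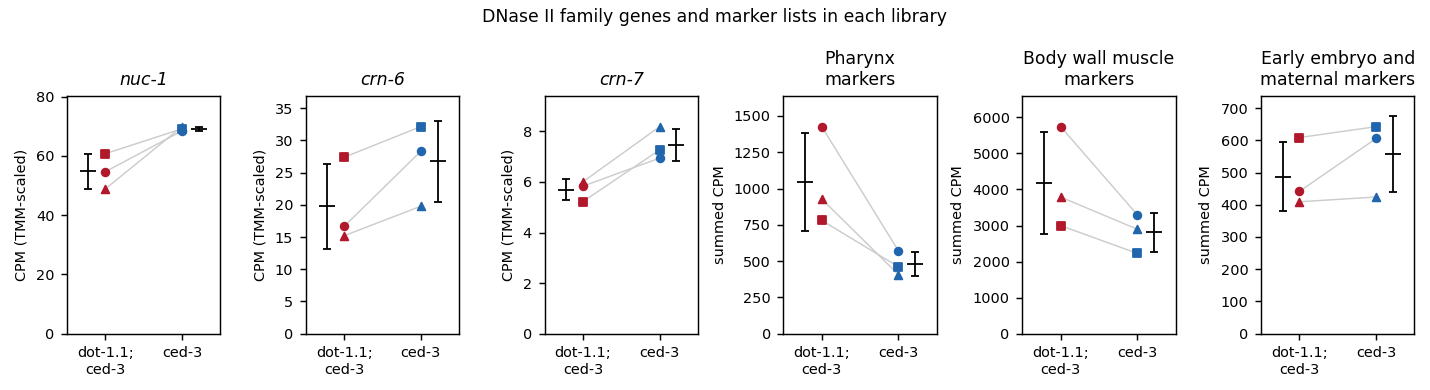
CPM of nuc-1, crn-6 and crn-7 and summed CPM of 3 marker lists in each library, dot-1.1; ced-3 left and ced-3 right; symbols are replicates 1, 2 and 3, grey lines join equal replicate numbers, and bars give mean and SD (n = 3). The DNase II genes and the early embryo and maternal sum are lower in the double mutant in each pair, and the pharynx and muscle sums are higher.

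The members also varied together to different degrees over the 6 libraries, which is described without a test because the libraries share their genotypes and scaling. The Pearson correlation of log2 CPM was 0.96 between ced-1 and ced-10 and 0.88 between ced-1 and ced-6. It was -0.82 between ced-1 and nuc-1 and -0.23 between ced-1 and ced-7, its partner in the same branch. The genes ced-5 and ced-12, whose proteins act as a complex, were at -0.034. The tested genes most like nuc-1 over the 6 libraries were C35E7.10 at 0.999, grl-20 at 0.993 and C24H12.1 at 0.987. Each of these was separate between the genotypes and lower in the double mutants, as nuc-1 was. Counts of grl-20 were low, at 13, 19 and 10 in the double mutants and 28, 30 and 31 in the single mutants. The levels of C35E7.10 were 1.79, 2.40 and 1.26 CPM in the double mutants and 3.27, 3.42 and 3.63 CPM in the single mutants. A correlation with nuc-1 above 0.95 was found for 47 of the tested genes.

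The wider pathway was read from a list of 74 other genes, of which 73 were tested. The rest, rac-2, had too few counts. In edgeR 0 of the 73 were called, with 5 at an unadjusted p under 0.05, where 12.1% of all tested genes had one. DESeq2 called 0, where it called 374 higher and 87 lower among 19370 tested genes. It had 5 at an unadjusted p under 0.05, again with no share over all genes given. With the block, edgeR called 3 higher, against 2.57% of tested genes, and 0 lower, against 1.45%, with 16 at an unadjusted p under 0.05, against 24.5%. The median log2 fold change was -0.013, beside -0.016 for all tested genes, and 35 genes lay above 0 and 38 below.

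Of the 3 genes called with the block, unc-73 belongs to the cytoskeleton group and dyn-1 to phagosome maturation. The gene unc-73 encodes a Trio-type exchange factor that activates Rac GTPases. It was at 845, 659 and 829 CPM in the double mutants and 615, 480.4 and 581 CPM in the single mutants, with a blocked log2 fold change of 0.48 ± 0.084 SE (adjusted p = 0.0295, edgeR; 0.295 without the block). The gene dyn-1 encodes dynamin, which acts downstream of CED-1 in phagosome formation and maturation. It was at 185, 126 and 139.6 CPM in the double mutants and 126.4, 90.4 and 116 CPM in the single mutants, with a blocked log2 fold change of 0.43 ± 0.088 SE (adjusted p = 0.0424, edgeR; 0.389 without the block). The groups were separate for unc-73, as for 10.6% of tested genes in this direction, and overlapped for dyn-1. In edgeR with the block, neither was called without replicate 1 or without replicate 3 of both genotypes, and both were called without replicate 2. Pharynx and muscle sums were higher in the double mutant in each pair, though the muscle sums overlapped between the genotypes. Their part was not tested.

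By role, the 12 genes of exposure and recognition had a median log2 fold change of 0.085, with 0 called in either fit. The lowest p among them belonged to chat-1, which encodes a partner of the flippase TAT-1 (0.25 ± 0.11 SE, adjusted p = 0.422, edgeR), and to the scramblase gene scrm-1 (0.28 ± 0.15 SE, adjusted p = 0.487, edgeR). Exons of chat-1 overlap those of R08C7.12 on the same strand over 159 bases, or 10.9% of its exon length. The 15 tested genes of the cytoskeleton and uptake had a median of -0.013, with 2 called with the block. The 31 genes of phagosome maturation had a median of -0.022 and a range of -0.27 to 0.44, with 1 called with the block. After dyn-1, the lowest p in that group belonged to ocrl-1, a phosphoinositide phosphatase gene (-0.22 ± 0.11 SE, adjusted p = 0.436, edgeR).

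The 8 genes of lysosomal digestion and export had a median log2 fold change of -0.057 and a range of -0.44 for crn-6 to 0.77 for the predicted solute transporter gene slcf-1. The place of slcf-1 in corpse clearance is uncertain, and without it the median was -0.10 and the highest value 0.25. The level of slcf-1 was 3.74, 3.66 and 3.02 CPM in the double mutants and 2.69, 2.13 and 1.29 CPM in the single mutants. The groups were separate, as for 10.6% of tested genes (adjusted p = 0.37, edgeR). DESeq2 with the block called slcf-1 higher (adjusted p = 0.0474), against 6.35% of its tested genes. The blocked edgeR fit without replicate 2 of both genotypes did too (adjusted p = 0.0426), against 7.81%. That edgeR fit called 2 genes of this group higher and 1 lower. The 7 nuclease and cofactor genes had a median of -0.087, with 0 called in either fit. The lowest p in this group belonged to dcr-1, the Dicer gene, whose product is turned into a DNase by CED-3 in dying cells (-0.18 ± 0.11 SE, adjusted p = 0.527, edgeR). The cyclophilin gene cyn-13 followed at -0.19 ± 0.13 SE (adjusted p = 0.565, edgeR).

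**Figure D5:**
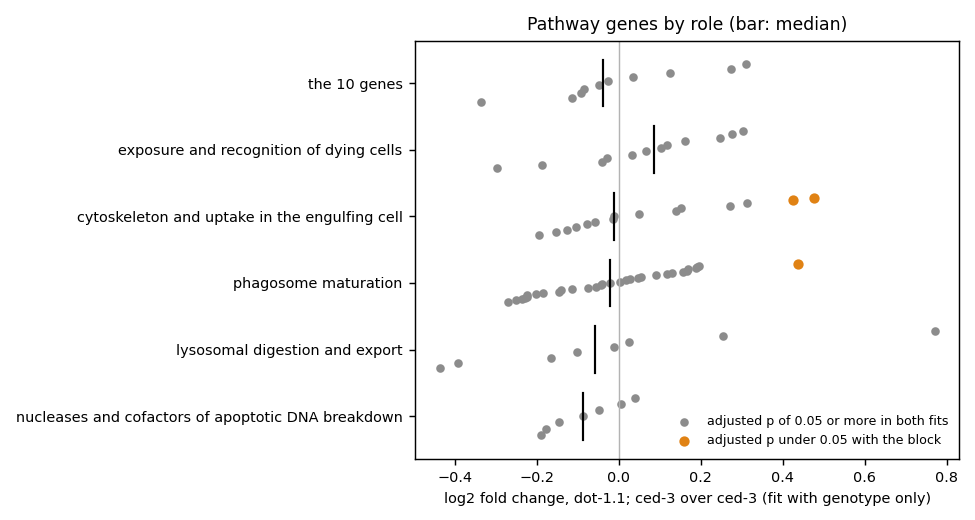
Log2 fold change, double mutant over single mutant, of the 10 genes and of 73 other pathway genes by role, from the fit with genotype only; each point is a gene, bars are medians, and orange marks an adjusted p under 0.05 in the fit with the replicate block. The medians lie between -0.087 and 0.085, and the 3 orange points are 2 cytoskeleton genes, unc-73 among them, and dyn-1.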

How the data were processed

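Strand-specific libraries of ribosomal RNA-depleted total RNA from embryos were made, per the labels' protocols. The authors deposited raw read counts per gene, and HISAT2 2.0.5, StringTie and build WBcel235 are named in the submitters' processing notes. The counting program, its annotation, its use of strand and its treatment of reads with several matches are not stated in those notes or the labels. Names came from RefSeq (WBcel235), and coordinates and exon lengths from Ensembl's annotation of WBcel235.

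All rows were fitted with edgeR 4.0.16 in R 4.3.3: filterByExpr left 17365 genes, TMM scaled the libraries, and a robust quasi-likelihood fit tested genotype with no other term. DESeq2 1.42.0 was an alternative. The fits were first run on simulated counts with a set spread, smaller than that of the real fit without the block. The outcome is not given here. The members, though no value was used to pick them, and the lists were chosen with earlier results of these data known. All members are named. Other pathway genes are named if called by edgeR with or without the block, or if among the 2 lowest p of their role, except for 1 that is counted but not reported here. The 3 genes most like the member of lowest p and the nearest relatives of ced-10 and nuc-1 are named too.

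The labels number the replicates of both genotypes 1 to 3 without saying what a number shares. Deviations from the genotype means correlated at 0.17 to 0.32 within numbers and at -0.24 to 0.059 between them, so the numbers were taken as pairs and a fit with the replicate number as a block was added. Replicates of a genotype differed by 98.0 to 190.3 chi-square units per degree of freedom, far above sampling noise. That replicates are separate cultures rests on the word biological in the labels. A count of 0 allows up to 3 counts, which covers counting error only, since PCR copies are not independent molecules.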

Additional observations from a re-analysis of the deposited data

How the results depend on the processing

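The 15 alternatives gave 150 values for the 10 genes, of which 141 kept their direction. The genes ced-1, ced-10, ced-6, ced-12 and nuc-1 kept it under all 15, with log2 fold changes of 0.28 to 0.39 for ced-1, 0.21 to 0.36 for ced-10 and -0.42 to -0.23 for nuc-1. The 9 reversals came from leaving out libraries. With 1 library left out, the log2 fold change ran from -0.065 to 0.040 for ced-7, -0.22 to 0.094 for psr-1, -0.11 to 0.0066 for ced-2, -0.038 to 0.079 for ced-5 and -0.29 to 0.12 for cps-6. With the block and without replicate 1 of both genotypes it was 0.035 for ced-7, and without replicate 2 it was 0.089 for psr-1, -0.088 for ced-5 and 0.023 for cps-6. With the replicate block, edgeR called 0 of the 10 genes and 3 other pathway genes higher, 2 of the cytoskeleton group and 1 of phagosome maturation. The block in DESeq2, which called 6.35% of all genes higher and 6.52% lower, called 1 member higher and 1 lower, and 5 other pathway genes higher and 1 lower: 3 higher in the cytoskeleton group, 1 higher in phagosome maturation, and 1 higher and 1 lower in lysosomal digestion. Over the fits that left out libraries, with or without the block, the members called ran from 0 to 1 higher and 0 to 1 lower, and the other pathway genes from 0 to 5 higher and 0 to 3 lower. By role these were 0 to 2 higher and 0 to 1 lower for the cytoskeleton group, 0 to 1 higher and 0 to 1 lower for phagosome maturation, and 0 to 2 higher and 0 to 1 lower for lysosomal digestion. All of these calls came from the blocked fit without replicate 2, where the spread was smallest (coefficient of variation 0.162, against 0.201 with all replicates) and 1361 of all genes (7.81%) were called higher and 1115 (6.39%) lower; the cause was not tested. Fits that left 2 libraries in a genotype took their spread from all libraries fitted. Scaling by library totals or by DESeq2's size factors and omitting the filter on low counts changed no call of a member or other pathway gene and no direction of a member, and no scaling moved the median of all genes by over 0.1 on the log2 scale. The 3 replicates per genotype limit the precision.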
